A study of Mus musculus with 3 samples.

Results

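Twist1 genomic occupancy was examined at 10 genes of limb bud patterning, Fgf8, Fgf10, Shh, Fgfr1, Fgfr2, Grem1, Gli3, Tbx5, Alx4 and Lmx1b, in peak lists from 3 ChIP-seq samples. A peak was counted for a gene when the list named that gene as its neighbor on either side at a distance of 0 to 50 Kb. By this rule 14 peaks were found, 10 of 48965 in E10.5 limb buds, 3 of 10965 in E12.5 endocardial cushion cells (ECCs) and 1 of 7538 in peripheral nerve sheath tumor (PNST) cells. The 10 genes stand beside 14619 genes named anywhere in the 3 lists, and 8 of the 10 were named at any distance.

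The vertebrate limb bud grows out under a feedback loop between its mesenchyme and the apical ectodermal ridge at its tip. Fgf10 from the mesenchyme signals to Fgfr2 in the ectoderm, ridge FGFs such as Fgf8 signal back to mesenchymal Fgfr1, and Shh from the posterior mesenchyme, acting against the repressor form of Gli3 and through the BMP antagonist Grem1, sets anterior-posterior pattern. Limb bud mesenchyme expresses Twist1 and needs it for outgrowth. The Twist1 protein is a bHLH factor whose dimers recognize the E-box, CANNTG.

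The ECC sample was atrioventricular canal cushion tissue from E12.5 embryos, the limb bud sample was forelimb bud tissue from E10.5 embryos, and the PNST sample was a cultured mouse tumor cell line grown in DMEM with serum. All 3 carry the strain label FVB/N, and all were precipitated with 5 μg of an anti-Twist1 antibody. Wild-type tissue of several litters, or cells from plates of the line, was pooled, so each tissue had 1 sample without replicates and no difference between tissues could be tested. No separation of limb bud ectoderm from mesenchyme is described, and since the lists hold no expression values, the tissue labels were not checked against marker genes.

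The lists differ in depth and length. As deposited, the limb bud list and the depth in its header are larger than those the study describes for limb buds, and the sources used here do not say why, so every limb bud count below holds for the deposited list. After removal of duplicates, 3149934 tags (mapped reads) remained in the ECC library, 14893391 in that of limb buds and 11823220 in that of PNST cells, and the smallest peak held 5, 8 and 7 tags. Scaled to 1000000 filtered tags of the library, here called normalized tags, this is 1.59, 0.537 and 0.592, so a region with the normalized tags of the limb bud or PNST minimum fell short of the smallest ECC peak. A gene without a peak by the rule may therefore still have weaker regions that were not detectable at this depth. A listed peak near a gene also went uncounted where the list names other genes.

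The sequences of the regions on which the results turn are given here from the mm9 genome, on the plus strand, with each E-box (CANNTG, whose letters read as an E-box on both strands) in capitals. The first set holds peaks that name a ligand or receptor gene within 50 Kb (of the 2 at Fgf8, the nearer) and the part of the Gli3 peaks that ECCs and limb buds shared.
Fgf10, limb bud peak, chr13:119477073-119477211: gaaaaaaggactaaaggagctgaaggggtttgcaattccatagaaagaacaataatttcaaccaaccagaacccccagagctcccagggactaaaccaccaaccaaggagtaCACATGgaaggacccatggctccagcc
Fgf8, limb bud peak, chr19:45782174-45782429: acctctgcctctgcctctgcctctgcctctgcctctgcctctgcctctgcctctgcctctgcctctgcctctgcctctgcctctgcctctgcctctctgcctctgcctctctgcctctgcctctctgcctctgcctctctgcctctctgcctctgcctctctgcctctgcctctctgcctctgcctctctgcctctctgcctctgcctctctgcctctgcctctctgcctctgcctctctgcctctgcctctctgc
Fgfr1, PNST peak, chr8:26600347-26600442: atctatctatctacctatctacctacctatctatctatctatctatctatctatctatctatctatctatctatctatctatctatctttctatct
Gli3, region shared by ECCs and limb buds, chr13:15529858-15529966: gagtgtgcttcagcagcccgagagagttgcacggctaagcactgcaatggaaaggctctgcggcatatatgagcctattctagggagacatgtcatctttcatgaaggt

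The second set holds the peaks inside or beside the transcription factor genes: the limb bud peaks in introns of Gli3 and Lmx1b, the 121 bases centered on the summit of the limb bud peak 3' of Tbx5, which had the most tags of the 14, and the ECC peak of Lmx1b, which had the most E-boxes.
Gli3, intron 7, limb bud peak, chr13:15744983-15745110: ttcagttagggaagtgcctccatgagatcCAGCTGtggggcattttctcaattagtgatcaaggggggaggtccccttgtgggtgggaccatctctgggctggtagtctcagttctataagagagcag
Tbx5, limb bud summit, chr5:120344838-120344958: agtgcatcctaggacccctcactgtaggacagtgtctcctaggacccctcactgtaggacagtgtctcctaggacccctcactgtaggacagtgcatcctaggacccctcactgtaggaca
Lmx1b, intron 2, limb bud peak, chr2:33476607-33476732: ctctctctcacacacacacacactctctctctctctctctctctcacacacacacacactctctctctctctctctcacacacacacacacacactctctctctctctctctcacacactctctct
Lmx1b, ECC peak, chr2:33377633-33377869: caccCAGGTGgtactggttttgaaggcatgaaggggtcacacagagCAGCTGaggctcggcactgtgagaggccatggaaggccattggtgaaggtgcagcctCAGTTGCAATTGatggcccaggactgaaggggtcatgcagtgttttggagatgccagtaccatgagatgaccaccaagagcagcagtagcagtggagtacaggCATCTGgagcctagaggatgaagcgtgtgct

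Several of these can be read directly. The Fgf8 region is made of copies of a CTCTGC unit, the Fgfr1 region of ATCT with a few substitutions, and the Lmx1b intron region of alternating CA and CT runs. The Tbx5 region repeats a longer unit. Set against itself after a shift of 60 bases, the Tbx5 peak matched at 89.0% of positions, and the Fgf8, Fgfr1 and Lmx1b intron peaks matched at 84.1% (shift of 36 bases), 94.3% (8 bases) and 93.5% (2 bases). The Fgf10, Gli3 and Lmx1b ECC regions showed no such period.

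Limb buds had peaks at 5 of the 10 genes (Fgf8, Fgf10, Gli3, Tbx5 and Lmx1b), ECCs at 2 (Gli3 and Lmx1b) and PNST cells at 1 (Fgfr1). Among all genes named in the lists, 87.5% had a peak within 50 Kb in limb buds, 36.3% in ECCs and 23.6% in PNST cells. Of the 8 patterning genes named in a list, as all genes of that reference are, these counts make 62.5%, 25% and 12.5%. With so few genes and no test run, the counts in limb buds, ECCs and PNST cells cannot be set apart from the reference shares. No peak in any list named Shh, Fgfr2, Grem1 or Alx4 within 50 Kb. None of the 10 patterning genes had a peak in all 3 tissues, and 89.5% of all named genes likewise lacked a peak in at least 1 tissue. Of the 8 named in a list, 3 (Fgf8, Fgf10 and Tbx5) had peaks by the rule in limb buds alone, against 46.4% of all named genes. With only the 7000 peaks of smallest p-value kept from each list, so that the lists held the same number, 1 gene remained in each: Tbx5 in limb buds, Lmx1b in ECCs and Fgfr1 in PNST cells. By the same cut, 24.9% of all named genes had a peak in limb buds, 26.2% in ECCs and 22.2% in PNST cells. With 1 gene left in each list, the tissues cannot be compared.

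**Figure D1:**
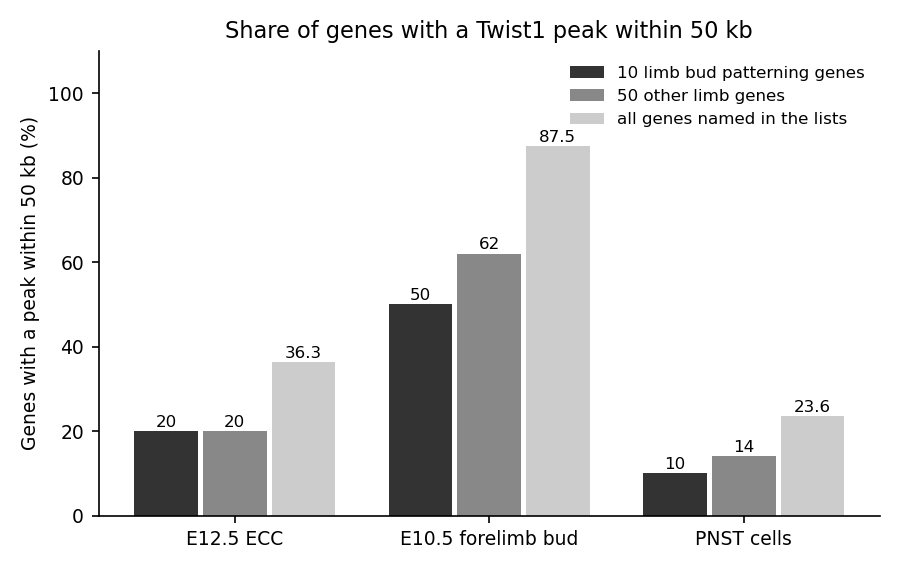
Bars give the percentage of genes with a peak within 50 Kb in each of the 3 samples, for the 10 limb bud patterning genes, 50 other limb genes and all genes named in the lists, from 1 sample for each tissue and so without error bars. The patterning genes stand at 50% in limb buds, 20% in ECCs and 10% in PNST cells, beside 87.5%, 36.3% and 23.6% of all named genes; 2 of the 10 and 8 of the 50 genes are named in no list.

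The distances in the lists mostly run to the start coordinate of an exon, coding or codon feature of the named gene, which was a transcriptional start site (TSS) for 1.41% to 1.68% of distances to the lower side of a peak and 24.1% to 24.7% of those to the higher side, and a gene lying between a peak and a farther gene hides the farther gene. Counted instead from the TSS of GENCODE vM1, a peak summit lay within 50 Kb of 5 of the 10 genes in limb buds (Fgf8, Fgf10, Shh, Gli3 and Lmx1b), 3 in ECCs (Fgf8, Gli3 and Lmx1b) and 1 in PNST cells (Fgfr1). For all protein-coding genes these shares were 77.3%, 32.1% and 19.0%. No summit of the 14 peaks lay within 1 Kb of the TSS of its gene. Of the 14, 12 were intergenic and 2 were intronic, and 6 lay upstream of the TSS. The same shares were not counted over all peaks of the lists, so these positions describe the 14 peaks and cannot be called particular to them.

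**Figure D2:**
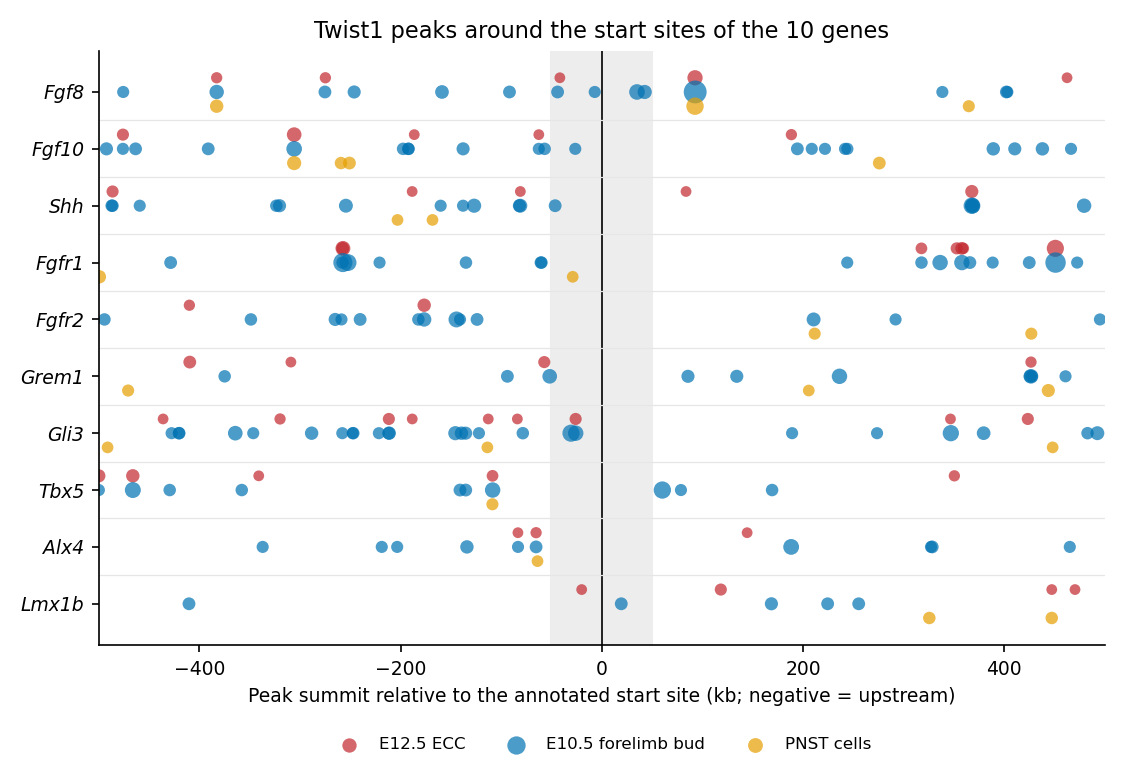
Each dot is a peak summit within 500 Kb of the TSS of a patterning gene, placed by its distance in Kb (negative is upstream) and colored by sample, with the dot area growing with the square root of the tag count and the 50 Kb window shaded. Within the window, Fgfr2, Grem1, Tbx5 and Alx4 hold no summit in any sample, and Fgf8 holds the most, with 4 in limb buds and 1 in ECCs.

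Among the ligands, Fgf8, the FGF of the apical ectodermal ridge, had 2 peaks in limb buds and none in the other lists, and no list named it beyond 50 Kb. They held 15 tags (chr19:45774612-45774783) and 22 tags (chr19:45782174-45782429), at fold enrichments of 6.23 and 8.33 over the local background, and lay 42687 and 35025 bp downstream of the TSS, between Fgf8 and its neighbor Fbxw4. The tag counts exceeded those of 83.3% and 93.7% of limb bud peaks, while the fold enrichments exceeded those of only 1.73% and 6.21%. By position, 4 limb bud summits and 1 ECC summit lay within 50 Kb of the TSS, although the ECC list does not name Fgf8. A limb bud peak of 8 tags lay closer than the 2 that name Fgf8, 6985 bp upstream of the TSS (chr19:45824316-45824381). The list names Npm3 and Mgea5 as its neighbors. Its sequence occurs once in mm9 for 97.1% of its 32-base stretches, whereas no such stretch of the 2 peaks that name Fgf8 occurs only once.

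The tallest peak around Fgf8 was in all 3 lists and names Fbxw4, a gene whose introns are known to hold Fgf8 enhancers. It was looked up after the values were seen. The peak lay in intron 1 of Fbxw4, 92717 bp downstream of the Fgf8 TSS by its ECC summit, and held 20 ECC tags (chr19:45724443-45724745), 101 limb bud tags (chr19:45724440-45724750) and 34 PNST tags (chr19:45724447-45724750). In normalized tags these are 6.35 (95% Poisson interval 3.88 to 9.81), 6.78 (5.52 to 8.24) and 2.88 (1.99 to 4.02). The ECC and limb bud intervals overlapped, and the limb bud and PNST intervals did not. Such intervals cover counting error only, and they compare libraries, not tissues. The sequence common to the 3 peaks is shown because each peak covers almost all of the others, and it has 2 E-boxes. How much of it is repeated in mm9 is not given here, and whether it acts on Fgf8 was not tested.
Fbxw4, intron 1, region shared by the 3 lists, chr19:45724447-45724745: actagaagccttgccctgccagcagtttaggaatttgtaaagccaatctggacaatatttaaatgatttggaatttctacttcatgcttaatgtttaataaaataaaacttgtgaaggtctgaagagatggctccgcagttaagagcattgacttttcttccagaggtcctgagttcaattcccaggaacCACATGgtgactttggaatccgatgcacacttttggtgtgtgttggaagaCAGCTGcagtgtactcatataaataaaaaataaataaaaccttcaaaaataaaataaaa

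Fgf10, the mesenchymal ligand that starts the loop, had 1 peak within 50 Kb, in limb buds. It held 8 tags, the smallest number in that list, at a fold enrichment of 18.3 (chr13:119477073-119477211), 26337 bp upstream of the TSS and with an E-box of the form CACATG. Of its 32-base stretches 46.3% occur once in mm9, the highest share among the 14 peaks. The next peaks stood just outside the limit. A limb bud peak of 9 tags lay at 56848 bp, and an ECC peak of 5 tags at 62635 bp (chr13:119440871-119441053) and a limb bud peak of 8 tags at 62634 bp (chr13:119440872-119441014) overlapped over the whole of the limb bud peak. In PNST cells the nearest peak that names Fgf10 was 201178 bp away.

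Farther upstream, 305813 bp from Fgf10 in the ECC list, a region was present in all 3 lists with 17 ECC tags, 22 limb bud tags and 15 PNST tags. Fold enrichment there reached 104 for the ECC peak, 54.8 for the limb bud peak and 45.5 for the PNST peak. In normalized tags the counts are 5.40 (3.14 to 8.64), 1.48 (0.926 to 2.24) and 1.27 (0.710 to 2.09), so the ECC interval stood above both others. The common sequence, shown because no other region naming Fgf10 overlapped across all lists, has no E-box and is present several times in mm9, with a median of 5.0 copies per 32-base stretch of the ECC peak.
Fgf10, region shared by the 3 lists, chr13:119197693-119197773: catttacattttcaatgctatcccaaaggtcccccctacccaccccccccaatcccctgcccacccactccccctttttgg

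Shh, the ligand of the zone of polarizing activity, was named in none of the lists. By position, the nearest peak was in limb buds, with 10 tags 46340 bp upstream of the TSS (chr5:28839872-28840024), and the list gives 9530036O11Rik on both of its sides. Farther upstream, at 80926 bp, an ECC peak of 5 tags (chr5:28874472-28874648) and a limb bud peak of 14 tags (chr5:28874482-28874642) overlapped, each with 3 E-boxes. PNST cells had no peak within 100 Kb of the Shh TSS. The limb enhancer of Shh is known to lie far away in an intron of Lmbr1, and Lmbr1 itself had peaks in all 3 lists, 9 of them in limb buds and 1 in each of the others. The 9 tags in ECCs (chr5:29593870-29594089) and the 9 tags in PNST cells (chr5:29593685-29593869) lay end to end in intron 9 without sharing a base. The limb bud peaks held 8 to 22 tags, and 5 of them lay in introns 15, 5, 4 and 3. The position of the enhancer is not given in the files, so no peak was assigned to it.

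Among the receptors, Fgfr1, which the mesenchyme uses for ridge FGFs, had 1 peak, and this was the only PNST peak at any of the 10 genes. It held 7 tags, the smallest number in that list, at a fold enrichment of 21.2 (chr8:26600347-26600442), 28870 bp upstream of the TSS. In limb buds the nearest peak that names Fgfr1 held 9 tags at 59997 bp. ECCs had none closer than 257401 bp. There, an ECC peak of 18 tags (chr8:26371843-26372153) lay inside a limb bud peak of 49 tags (chr8:26371713-26372208), the most tags of any peak naming a patterning gene in the lists.

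Fgfr2, the receptor for Fgf10 in the ectoderm, had no peak within 50 Kb in any list and was not named at all in ECCs. The nearest limb bud peak held 14 tags at 106953 bp (chr7:137199012-137199209), and the nearest PNST peak held 8 tags at 107954 bp (chr7:137198011-137198151). These 2 peaks were 860 bp apart and did not overlap.

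Grem1, the BMP antagonist that links Shh to the ridge, was named in no list. No summit lay within 50 Kb of its TSS in any of them. The nearest were in intron 2 of Scg5, upstream of Grem1, with 17 tags at 51749 bp in limb buds (chr2:113650427-113650651) and 8 tags at 57138 bp in ECCs (chr2:113655845-113656003). Fmn1, the gene on the other side, through which regulatory sequence of Grem1 is known to extend, had peaks in all 3 lists, 7 in limb buds, 2 in PNST cells and 1 in ECCs. In intron 1 of Fmn1 the ECC peak of 6 tags (chr2:113172058-113172267) was covered over 91.9% of its length by a limb bud peak of 17 tags (chr2:113172075-113172327), 426690 bp from the Grem1 TSS.

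Of the transcription factors, Gli3, the zinc finger protein that Shh signaling keeps from its repressor form, had the most peaks, with 4 in limb buds and 1 in ECCs. Upstream of the TSS, an ECC peak of 8 tags (chr13:15529719-15529966) and a limb bud peak of 21 tags (chr13:15529858-15530167) shared the 109 bases shown above, 44.0% of the ECC peak and 35.2% of the limb bud peak. This was the only overlap among the 14 peaks. In normalized tags the ECC peak had 2.54 (1.10 to 5.00) and the limb bud peak 1.41 (0.873 to 2.16), a ratio of limb buds over ECCs of 0.555 (0.236 to 1.45, exact binomial), which includes equality. These tags are those of each whole peak, 248 bp in ECCs and 310 bp in limb buds, not of the shared bases alone. Both peaks were weak by fold enrichment, 11.1 in ECCs, above 3.54% of that list, and 5.63 in limb buds, above 0.986%. The shared bases have no E-box.

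Another limb bud peak with 32 tags and a CAGGTG E-box lay 4307 bp from the ECC peak (chr13:15525042-15525411). Its fold enrichment of 5.50 was the lowest of the 14. The remaining limb bud peaks at Gli3 each held 8 tags. The peak in intron 7 (chr13:15744983-15745110) had a CAGCTG E-box and a fold enrichment of 15.7, and the peak 3' of the gene (chr13:15829407-15829542) had a CATATG E-box and a fold enrichment of 13.1. No Gli3 peak within 50 Kb was found in PNST cells, where the nearest stood at 113503 bp. In limb buds the next peak held 9 tags at 78300 bp (chr13:15477256-15477377). In ECCs the next peak, at 83698 bp with 5 tags (chr13:15471858-15471985), was mostly unrepeated sequence, with 92.8% of its 32-base stretches found once in mm9.

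Beyond the limit Gli3 was named by 35 further peaks in limb buds, 13 in ECCs and 3 in PNST cells, more than any other of the 10 genes in ECCs and limb buds. The gene on its upstream side, AW209491, is 799625 bp from the ECC peak, and peaks across that span name Gli3 as a neighbor. By position, 25 limb bud summits lay within 500 Kb of the Gli3 TSS, against a median of 17.0 over all protein-coding genes, and 84.2% of genes had fewer.

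Tbx5, the T-box factor that starts the forelimb, had 2 limb bud peaks, both 3' of the gene. The peak with 33 tags (chr5:120344757-120345070) had the smallest p-value of the 14, given in the list as 176 on the scale of 10 times −log10 p, and was the only one past a p-value of 1e-10. Of each whole list, 9.01% of limb bud peaks passed that value, with 10.4% in ECCs and 8.28% in PNST cells. Its fold enrichment of 13.9 was close to the limb bud median of 14.4. The other Tbx5 peak held 8 tags with a CAAGTG E-box (chr5:120363356-120363498).

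Between Tbx3 and Tbx5, a further region was in all 3 lists at listed distances of 108642 bp from Tbx5 and 42931 bp from Tbx3 in ECCs, with 7 ECC tags (chr5:120176030-120176244), 21 limb bud tags (chr5:120176018-120176317) and 8 PNST tags (chr5:120175905-120176073). The ECC peak lay wholly inside the limb bud peak, and the PNST peak covered 20.5% of the ECC peak. Tbx3, which also acts in the posterior limb bud, thus had a peak in all 3 tissues by the rule, while the same peaks fell outside the limit for Tbx5.

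Alx4, an anterior homeodomain factor, had no peak within 50 Kb, and in all 3 lists the nearest lay just beyond, upstream of the TSS. An ECC peak of 6 tags (chr2:93417222-93417300) at 65369 bp was covered over 97.5% of its length by a limb bud peak of 10 tags (chr2:93417224-93417372) at 65367 bp. A PNST peak of 7 tags (chr2:93418613-93418711) at 63978 bp overlapped neither and lay 1240 bp from the limb bud peak. These nearest peaks lay mostly in repeated sequence. No stretch of the ECC or PNST peak occurs only once in the genome, and 7.63% of those in the limb bud peak do. The median copies per stretch were 516.5 in the ECC peak, 132.5 in the limb bud peak and 2693.5 in the PNST peak. The PNST peak matched itself at 97.9% of positions after a shift of 4 bases. ECC and limb bud peaks also overlapped farther out, at 83446 and 83357 bp, with 5 and 8 tags. With a limit of 100 Kb, Alx4 was the only patterning gene with a peak in all 3 tissues. The bases common to the nearer pair are shown because they are the closest shared region at this gene.
Alx4, region shared by ECCs and limb buds, chr2:93417224-93417300: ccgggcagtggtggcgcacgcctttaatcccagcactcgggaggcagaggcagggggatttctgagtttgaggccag

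Lmx1b, the LIM homeodomain factor of dorsal identity, had 2 peaks in ECCs and 1 in limb buds, none overlapping. The ECC peak with 8 tags (chr2:33377633-33377869) lay 3' of the gene, at a listed distance of 42423 bp and a fold enrichment of 24.4, and held the 5 E-boxes printed above, each of a different form. The ECC peak upstream of the TSS held 5 tags, the smallest number in that list, at the highest fold enrichment of the 14, 26.5 (chr2:33515948-33516131), in a sequence that matched itself at 97.2% of positions after a shift of 6 bases. The limb bud peak with 10 tags lay in intron 2 at a fold enrichment of 15.6. A further limb bud peak of 11 tags lay 92703 bp away (chr2:33327353-33327492), and the other lists held none beyond 50 Kb. By position, only 5 limb bud summits lay within 500 Kb of the Lmx1b TSS, and 0.149% of protein-coding genes had fewer.

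**Figure D3:**
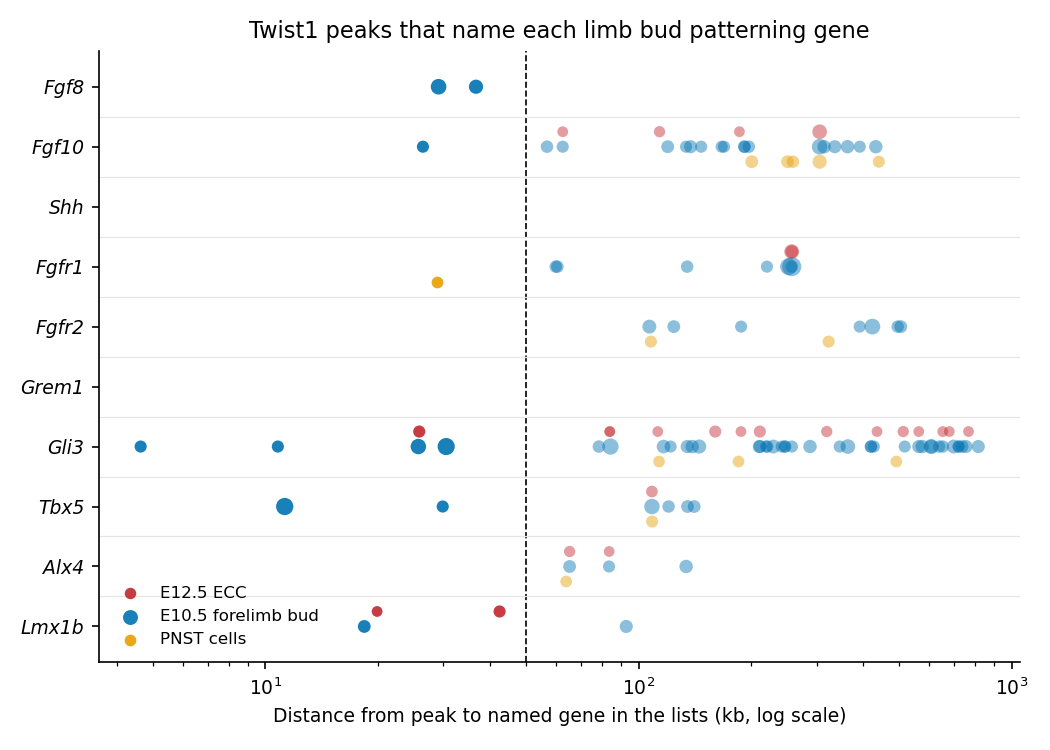
Each dot is a peak whose list names the gene, placed by the distance in the list (Kb, log scale) and colored by sample, with the dot area growing with the square root of the tag count; the dashed line marks 50 Kb and paler dots lie beyond it. Of 122 peaks that name a patterning gene at any distance, 14 lie left of the line, and Shh and Grem1 have no dots.

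Across the 14 peaks, tag counts ran from 5 to 33 and fold enrichments from 5.50 to 26.5. The tag count was the smallest of its list in 4 of the 10 limb bud peaks, 1 of the 3 ECC peaks and the PNST peak, as in 30.1%, 40.3% and 36.9% of the whole lists. In limb buds 5 of 10 peaks held more tags than 75% of the list, while 4 of the 10 had a fold enrichment below the 25th percentile of the list. These 4 were the peaks of 15 and 22 tags at Fgf8 and of 32 and 21 tags at Gli3. The Tbx5 peak of 33 tags had a fold enrichment near the median. Overlap with a peak of another tissue was found for 1 of 10 limb bud peaks, 1 of 3 ECC peaks and 0 of 1 PNST peak. Among all peaks within 50 Kb of a named gene, 9.2% in limb buds, 33.9% in ECCs and 20.4% in PNST cells were overlapped. The counts over the patterning genes are too few to be set apart from these shares.

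**Figure D4:**
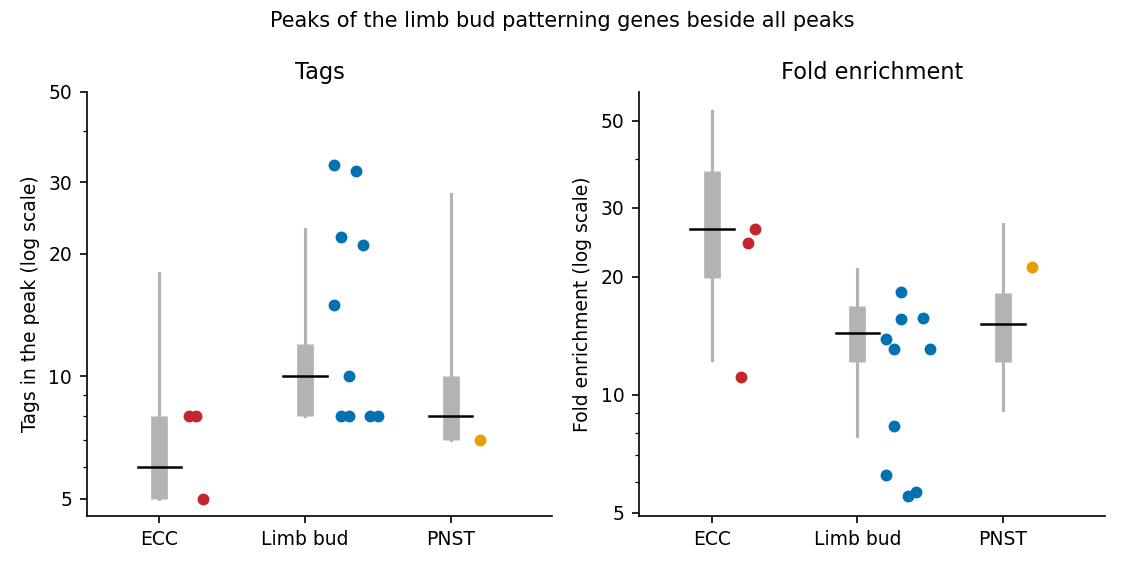
Colored dots give the tags (left) and fold enrichment (right) of the 14 peaks at the patterning genes, on log scales. Gray bars beside them show each whole list, with the thick part from the 25th to the 75th percentile, the thin part from the 5th to the 95th and a black line at the median. The 10 limb bud dots reach from 8 to 33 tags and from 5.50 to 18.3-fold, and the single PNST dot stands at 7 tags.

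E-box sites were present in 6 of the 14 peaks, 5 of 10 in limb buds, 1 of 3 in ECCs and 0 of 1 in PNST cells. Among all placed peaks 56.0% in limb buds, 54.7% in ECCs and 54.0% in PNST cells held at least 1. Longer peaks hold an E-box more often, and among limb bud peaks within 10% of its length 73.9% of those like the Gli3 peak of 32 tags did, against 50.9% of those like the Gli3 intron peak. The CAGCTG form was found in the Gli3 intron peak and the Lmx1b ECC peak, and CATCTG in the latter. Of the 6 peaks with an E-box, 3 had it within 50 bp of the summit.

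Most of the sequence under these peaks, as under the lists as a whole, is repeated in the genome. No 32-base stretch occurs only once in mm9 in 7 of the 10 limb bud peaks, 2 of the 3 ECC peaks and the PNST peak, near the 73.5%, 59.6% and 66.0% of the whole lists. No peak reached 50%, which 1.38% of the limb bud list, 5.16% of the ECC list and 3.88% of the PNST list did. The highest shares were 46.3% in the Fgf10 peak and 24.0% in the Tbx5 peak of 33 tags. A self-match of 70% or more after a shift was found in 5 of the 14 peaks. In limb buds these were the nearer Fgf8 peak, the Tbx5 peak of 33 tags and the Lmx1b intron peak. The others were the ECC peak upstream of Lmx1b and the PNST peak. Of the whole lists, 7.53% in limb buds, 15.3% in ECCs and 10.6% in PNST cells reached that value, and no difference was tested. How a read that fits several copies was placed is not given in the sources used here, and the part of repeated sequence in the presence of a peak was not tested.

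Other genes of limb patterning had peaks by the same rule at 31 of 50 in limb buds, 10 in ECCs and 7 in PNST cells, and 42 of the 50 were named in a list. Over those 42, the shares were 73.8%, 23.8% and 16.7%, beside 87.5%, 36.3% and 23.6% of all named genes. A peak in any tissue was found for 36 of the 42, against 95.3% of all named genes. For 23 of the 42 it was in limb buds alone, against 46.4% of all named genes. In all 3 tissues a peak was found for 4 of the 42, while 89.5% of all named genes lacked one in at least 1 tissue. No test was run, so these counts are not set apart from the reference shares. The 4 genes were Fmn1, Lmbr1, Tbx3 and Smo, which encodes the transducer of Shh signals. Smo had by far the most tags, in intron 1, with 372 in the ECC peak (chr6:29697849-29699041), 525 and 80 in 2 limb bud peaks and 33, 134 and 15 in 3 PNST peaks, and every Smo peak of the other lists overlapped the ECC peak. The largest Smo peak of limb buds covered 71.0% of the ECC peak. No Smo peak in any list held an E-box. Set against themselves after a shift, the Smo peaks matched at 66.7% (ECC peak) to 86.5% (PNST peak of 33 tags) of positions. The share of their stretches that occur once in the genome ran from 2.08% (PNST peak of 33 tags) to 68.2% (PNST peak of 15 tags). It was 35.5% in the ECC peak. The part of repeated sequence in the Smo tag counts was not tested. After Smo, the most tags in a peak were 11 at Fgf9 and 9 at Lmbr1 in ECCs, 25 at Hoxa13 and 22 at Lmbr1 in limb buds, and 11 at Fmn1 and 9 at Lmbr1 in PNST cells. No peak within 50 Kb of the 10 patterning genes came near the Smo counts, the highest being the 33 tags at Tbx5.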

How the data were processed

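Twist1 ChIP-seq peak lists of 3 samples, 1 for each tissue, were used. The authors mapped single reads of 50 bp to mm9 (Eland v2 and Bowtie are named) and ran MACS 1.4.2 on every library separately (p-value of 1e-05 or smaller, band width 300, local background over 10000 bp). The deposited counts are tags per peak, with duplicates reduced to 1 tag per position and no scaling to depth. The deposited p-value is 10 times its −log10, and the deposited fold enrichment is a ratio to the local background. The file headers give no control file, while the methods name FVB/N genomic DNA. The peak length and summit, in bp, were used as deposited.

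The patterning genes and the list of other limb genes were chosen with earlier results of these data known. All 10 patterning genes are described with every peak within 50 Kb and the nearest beyond. Of the other limb genes, those with a peak in all 3 tissues and the 3 with most tags in each tissue are named. Shared peaks have at least 5% of their length overlapped. Distances end at the start of an exon, coding or codon feature of the named gene in GENCODE vM1 for 87.5% of lower-side and 66.6% of higher-side ECC distances, and at a TSS for 1.65% and 24.1%. TSSs, introns and exons are those of the protein-coding transcript with the longest coding sequence in GENCODE vM1. Sequences and copies of 32-base stretches (both strands) were read from mm9, and a shift of up to 60 bases was searched for self-identity. Normalized tags (tags per 1000000 filtered tags) carry exact 95% Poisson intervals. The code, in Python 3.11.15 with pandas 2.3.3 and scipy 1.17.1, was tested on simulated peaks and sequences. Alternatives changed 1 choice at a time. No test between tissues was run.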

Additional observations from a re-analysis of the deposited data

How the results depend on the processing

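The counts at the patterning genes are small, and most moved by over 1.5 times under some alternative; the causes were not tested. Peaks at the patterning genes (ECCs, limb buds, PNST cells, in this order throughout) numbered 3, 10 and 1 as reported, and genes with a peak 2, 5 and 1. With a distance limit of 10 Kb there were 0, 1 and 0 peaks at 0, 1 and 0 genes, and with 100 Kb 8, 19 and 2 peaks, at 4 genes in ECCs and 2 in PNST cells, with 1 gene in all 3 tissues in place of 0. With p-values of at most 1e-10 there were 0, 1 and 0 peaks at 0, 1 and 0 genes. With a fold enrichment of at least 20, ECCs had 1 gene and limb buds 0 peaks and 0 genes. With the 7000 peaks of smallest p-value of each list, ECCs and limb buds each had 1 peak at 1 gene. Of peaks with at least 50% single-copy 32-base stretches, an alternative chosen after seeing the data, there were 0 at 0 genes in all 3 lists. Using the nearer gene only, the annotated gene body with 50 Kb on each side (for genes, added after seeing the data), or the annotated TSS (also added then) left every count of peaks and of genes within 1.5 times of the reported one. With the TSS the genes themselves changed, since limb buds had Shh in place of Tbx5 and ECCs gained Fgf8.

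The other limb genes with a peak, 10, 31 and 7, became 5, 16 and 2 with 10 Kb, 17 in ECCs with 100 Kb, 2, 5 and 1 with p-values of at most 1e-10, 6 in limb buds and 2 in PNST cells with a fold enrichment of at least 20, 8 in limb buds with 7000 peaks, and 0, 6 and 2 in mostly single-copy sequence. The shares of all named genes, 36.3%, 87.5% and 23.6%, became 19.1%, 57.5% and 11.8% with 10 Kb, 42.5%, 92.1% and 28.5% with 100 Kb, 4.98%, 16.9% and 2.46% with p-values of at most 1e-10, 30.5%, 19.7% and 4.65% with a fold enrichment of at least 20, 29.8%, 75.3% and 19.7% with the nearer gene, 26.2%, 24.9% and 22.2% with 7000 peaks, and 3.07%, 3.60% and 1.37% in mostly single-copy sequence.

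The 2 overlapped peaks at the patterning genes became 0 with a reciprocal overlap of 50%, 0 with p-values of at most 1e-10 in both lists and 8 with 100 Kb. The 6 peaks with an E-box became 3 within 50 bp of the summit and 2 for the form CAGCTG together with CATCTG and its reverse complement. No replicate could be left out, since each tissue had 1 sample. No paired analysis was possible because each tissue had 1 sample and no result comes from a test. At the depth of ECCs a peak needed 5 tags, or 1.59 normalized tags, so weaker regions could not be listed there.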
